A study of Arabidopsis thaliana with 6 samples.

Results

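Among the 33602 genes measured in whole Arabidopsis thaliana seedlings, 107 were both abundant and nearly level between seedlings fed glutamate and seedlings fed ammonium nitrate. A gene was taken when its mean over all 6 libraries was at least 100 RPKM (reads scaled to gene length and to the size of the library), when the coefficient of variation (CV, the SD divided by the mean) of its 6 values was at most 5%, and when none of its reads was reported as mapping to several places. These genes were chosen by the deposited values of both groups, so the closeness of the groups in them is a description and not a finding. All seedlings were of the Columbia ecotype, 12 days old, and grown on agar plates with a nitrogen-free Murashige and Skoog salt mixture at 1/2 strength and 0.5% sucrose. The sole nitrogen source was 5 mM glutamate in 3 libraries and 5 mM NH4NO3 in the other 3. Ammonium nitrate carries ammonium and nitrate ions, while glutamate is an amino acid with a single nitrogen atom, so equal molarity was not equal nitrogen.

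Genes that keep a cell running, such as those of proton pumps, mitochondrial respiration and the ubiquitin system, are commonly called housekeeping genes. In plants the vacuolar proton pump acidifies the vacuole and so drives transport into it, mitochondria make ATP and carbon skeletons for amino acid synthesis, and ubiquitin conjugation marks proteins for turnover. Genes of this kind are also widely used as internal standards when the level of another gene is measured by quantitative PCR (qPCR).

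Reads assigned to genes came to 49688726 to 63424577 per library on glutamate and 49520239 to 51409318 on ammonium nitrate. The 107 genes took 2.71%, 2.78% and 2.73% of those reads in the 3 glutamate libraries, against 2.54%, 2.47% and 2.51% in the 3 ammonium nitrate libraries. Each of them had 2545 to 139227 reads in every library. The authors' scaling factors, worked back from the deposited values, were 1.03 to 1.05 on glutamate and 0.957 to 0.968 on ammonium nitrate. Nothing in the labels says that the libraries came from separate plates or cultures, so p-values given below measure the spread between these libraries, which may be technical. Levels come from whole seedlings, in which fewer cells of a type and less RNA per cell cannot be told apart. Shoot marker genes (RBCS1A, LHCB3, FED A, PSAN and LHCA4) summed to 8330 to 9306 RPKM per library on glutamate and 16365 to 17371 RPKM on ammonium nitrate. RBCS1A made up most of that sum, with 7644 ± 399 RPKM on glutamate and 14599 ± 506 RPKM on ammonium nitrate (SD, n = 3 each). The markers did not all lean one way, with ratios of glutamate to ammonium nitrate of 0.22 to 0.52 in RBCS1A, FED A and PSAN, 1.03 in LHCB3 and 1.23 in LHCA4. Root marker genes (CASP1, CASP4, SHV2, EXPA7, SCR and MYB66) summed to 98.3 to 111 RPKM per library on glutamate and 57.6 to 77.8 RPKM on ammonium nitrate. Their ratios were 0.742 in SCR, 1.10 in MYB66 and 1.49 to 2.25 in the other 4. None of the 11 markers was at 0 in any library, and the part of this difference in the results below was not tested.

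The 107 genes averaged from 102 to 2106 RPKM over the 6 libraries, with a median of 152 RPKM. Their CV ran from 1.44% to 4.99%, with a median of 3.81%, while the other 1138 genes of at least 100 RPKM without multiply mapped reads had a median CV of 19.1%. The log2 ratio of mean RPKM, glutamate over ammonium nitrate, lay between -0.11 and 0.12 in the 107 genes. Their median log2 ratio was 0.03, against -0.31 in the other abundant genes. The mean was higher on glutamate in 63 of the 107 genes and lower in 44. In 15 genes the means of the groups were within 1% of each other, and in 80 they were within 5%. The 3 glutamate values and the 3 ammonium nitrate values overlapped in 81 of the 107 genes, lay apart with glutamate higher in 18 and lay apart with glutamate lower in 8. Groups lay apart in 76.1% of the 20032 genes tested in the whole table, with glutamate higher in 36.9% and lower in 39.2%. The fit across all genes called 2 of the 107, DET3 among them, both higher on glutamate, against 71.8% of all genes tested. Since the choice of the genes used the same values, nothing is read from either count. 

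**Figure D1:**
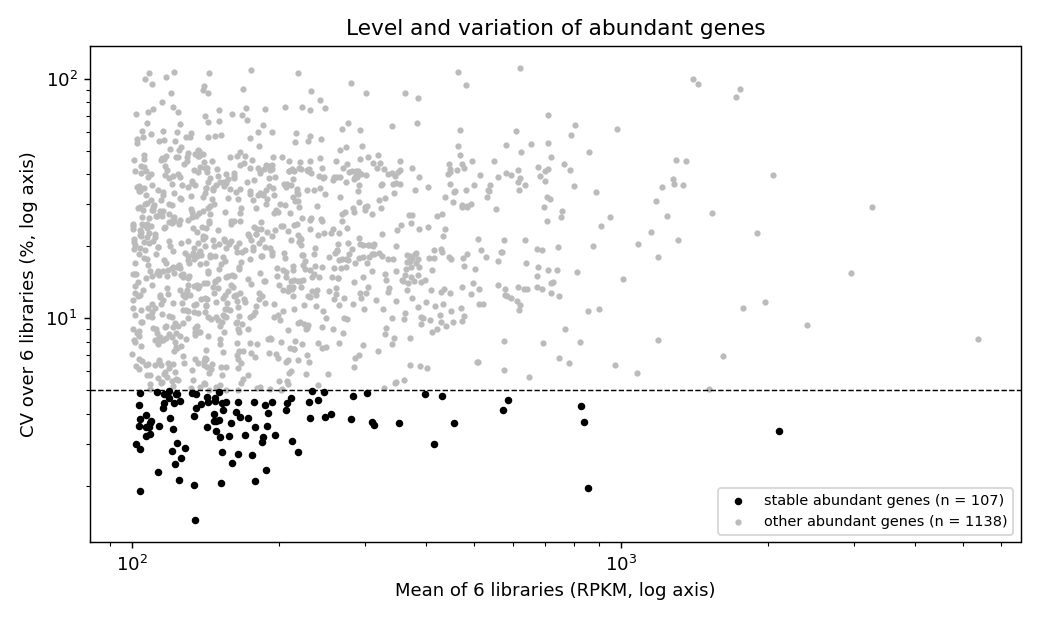
CV over the 6 libraries (%, log axis) against mean level (RPKM, log axis) for the 107 stable abundant genes (black) and the other 1138 abundant genes without multiply mapped reads (grey), with a dashed line at the limit of 5%. The black points reach from 102 to 2106 RPKM, and only 6 of them lie at 500 RPKM or above.

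On the deposited scale (others were not counted), stable genes were a larger share of the moderately abundant genes than of the most abundant ones. They made up 50 of 460 genes between 100 and 150 RPKM (10.9%) and 29 of 231 between 150 and 200 RPKM (12.6%). Between 200 and 300 RPKM the share was 14 of 244 (5.74%), between 300 and 500 RPKM 8 of 177 (4.52%), and at 500 RPKM or more 6 of 133 (4.51%). The 6 were TCTP, AAC1, UBC10, the B12D protein gene AT3G48140, the papain family cysteine protease gene AT4G16190 and the thionin-like gene AT1G25275. Their gene length had a median of 1.028 kb, against 0.987 kb in the other abundant genes. Chromosome 1 carried 35 of them (32.7%, against 23.1% of the other abundant genes) and chromosome 2 carried 12 (11.2%, against 18.7%). No 2 of the 107 were next to each other on a chromosome in the RefSeq annotation.

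The spread that remained was above counting error. Counting alone would give these genes a median CV of 1.02%, and the observed CV was at least 2 times that from counting in 102 of the 107. The median ratio was 3.70, with a range of 1.50 to 11.1. These values take each read as 1 count, and no source used here says whether both mates of a pair were counted. If they were, the median CV from counting would be 1.44%, and the observed CV would be at least 2 times that from counting in 78 of the 107, with a median ratio of 2.62. Within groups the median CV was 2.70% on glutamate and 3.34% on ammonium nitrate. The lowest of the 6 libraries was most often ammonium nitrate replicate 2, in 44 genes, where the median gene stood at 97.7% of its own mean. Ammonium nitrate replicate 1 was the highest library in 29 genes, with a median of 101.7%, and glutamate replicate 1 in 30, with a median of 100.9%. 

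**Figure D2:**
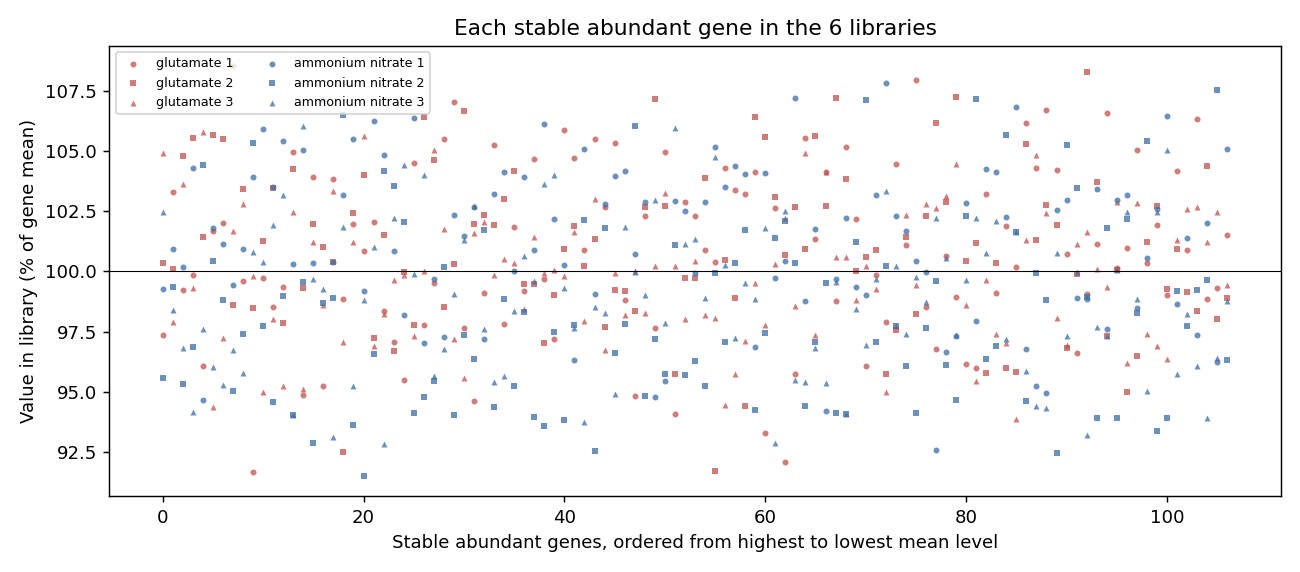
Value of each of the 107 stable abundant genes in each of the 6 libraries as a percentage of the gene's own mean, with genes ordered from highest to lowest level, glutamate libraries in red and ammonium nitrate libraries in blue. Both colours lie on either side of the line at 100%, and ammonium nitrate replicate 2 is the lowest point in 44 genes.

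TCTP (AT3G16640), which encodes the translationally controlled tumor protein, a growth regulator conserved from yeast to plants and animals, was the most abundant. TCTP had 2051, 2114 and 2210 RPKM on glutamate, against 2091, 2013 and 2158 RPKM on ammonium nitrate. The groups overlapped, with the highest value on glutamate and the lowest on ammonium nitrate, and 9 genes of the whole table had a higher mean. AAC1 (AT3G08580) encodes the main mitochondrial ADP/ATP carrier, which exchanges ATP made in mitochondria for cytosolic ADP. It had 886, 858 and 840 RPKM on glutamate and 866, 852 and 844 RPKM on ammonium nitrate. Glutamate held both the highest and the lowest of these 6 values, and the CV was 1.95%.

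The lowest CV of all, 1.44%, belonged to VAP27-1 (AT3G60600), a membrane protein of the endoplasmic reticulum found at its contacts with the plasma membrane. VAP27-1 had 137, 134 and 133 RPKM on glutamate and 133, 136 and 132 RPKM on ammonium nitrate. The groups overlapped, and the means, 135 ± 2.27 RPKM on glutamate and 134 ± 1.91 RPKM on ammonium nitrate (SD, n = 3 each), differed by 0.666%. Next came PMP (AT3G24160), annotated as a putative type 1 membrane protein, with 105, 103 and 106 RPKM on glutamate and 105, 101 and 102 RPKM on ammonium nitrate. Its groups overlapped too. Other genes of low CV were CCP2 (AT1G77710), annotated as a ubiquitin-fold modifier, at 2.06%, the SNARE gene VTI1B at 2.12%, COB, which guides cellulose deposition in expanding root cells, at 2.28%, and SAP5, a zinc finger protein of stress responses, at 2.33%.

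The vacuolar proton pump, or V-ATPase, was represented by 8 of the 107 genes. This enzyme has a soluble V1 part that splits ATP and a membrane V0 part that moves protons. The single subunit with the most stable genes was c, of the proteolipid ring of V0, with AVA-P2 (c2), VHA-C3 (c3) and AVA-P4 (c4). AVA-P1 (c1) and AT2G16510 (c5) were above the level limit too but missed the CV limit, at 5.32% and 7.66%. AVA-P2 had 412, 428 and 426 RPKM on glutamate and 418, 403 and 397 RPKM on ammonium nitrate. VHA-C3 had 242, 257 and 251 RPKM on glutamate, against 273, 251 and 253 RPKM on ammonium nitrate. The groups overlapped in both genes, although the means leaned in opposite directions, with log2 ratios of 0.06 and -0.05. AVA-P4 had 120, 121 and 118 RPKM on glutamate and 126, 117 and 123 RPKM on ammonium nitrate, which also overlapped.

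From the V1 part came VAB1 (subunit B1), DET3 (C), AT3G58730 (D), TUF (E1) and VMA10 (G1). VAB1, part of the ATP-binding head, had 102, 101 and 106 RPKM on glutamate and 99.2, 111 and 99.4 RPKM on ammonium nitrate. TUF, a stalk subunit needed in the embryo, had 257, 249 and 256 RPKM on glutamate, against 249, 245 and 231 RPKM on ammonium nitrate. VAB1 overlapped between groups, while in TUF every glutamate value was above every ammonium nitrate value by a narrow gap. DET3, whose mutant is short and de-etiolated in the dark, had 124, 119 and 119 RPKM on glutamate, against 110, 115 and 110 RPKM on ammonium nitrate. VMA10 leaned the other way, with 151, 138 and 148 RPKM on glutamate, against 159, 151 and 158 RPKM on ammonium nitrate. DET3 did not overlap between groups, and VMA10 overlapped only where its highest glutamate value met the lowest ammonium nitrate value.

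A wider list of 28 V-ATPase subunit genes, drawn up after values had been seen and therefore given without a test, showed how these 8 sat among their partners. Of the 28, 15 had at least 100 RPKM and 2 (VHA-E2 and VATG3) were under 1 RPKM. The 18 genes of at least 1 RPKM outside the stable set had log2 ratios from -0.57 in VHA-E3 to 0.62 in VAG2, and the median over all 26 genes of at least 1 RPKM was 0.05. Paralogs of 1 subunit could lie close together or far apart in this respect. VAB2 (B2) and VAB3 (B3) had log2 ratios of -0.05 and -0.03 and CVs of 3.47% and 4.15%. Like VAB1 (B1) they were within the CV limit, but they were under the level limit. Other pairs differed more. VAG2 (subunit G2) had 129, 129 and 133 RPKM on glutamate, against 93.2, 76.5 and 83.6 RPKM on ammonium nitrate, while VMA10 (G1) is in the stable set. VHA-E3 (E3) had 54.6, 50.2 and 51.4 RPKM on glutamate, against 84.2, 76.1 and 71.6 RPKM on ammonium nitrate, while TUF (E1) is in the stable set. Subunit H (AT3G42050), a single gene, had a CV of 2.34% and missed the set by its level alone, with 86.6, 85.4 and 85.5 RPKM on glutamate and 87.1, 89.7 and 83.6 RPKM on ammonium nitrate. The other vacuolar proton pump, the pyrophosphatase AVP1, was not stable, with 156, 149 and 167 RPKM on glutamate, against 198, 247 and 205 RPKM on ammonium nitrate. AVP1 fell on glutamate by 0.46 on the log2 scale of RPKM + 1 (SE 0.09, adjusted p = 0.00173, limma), and all 3 glutamate values were below all 3 ammonium nitrate values.

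**Figure D3:**
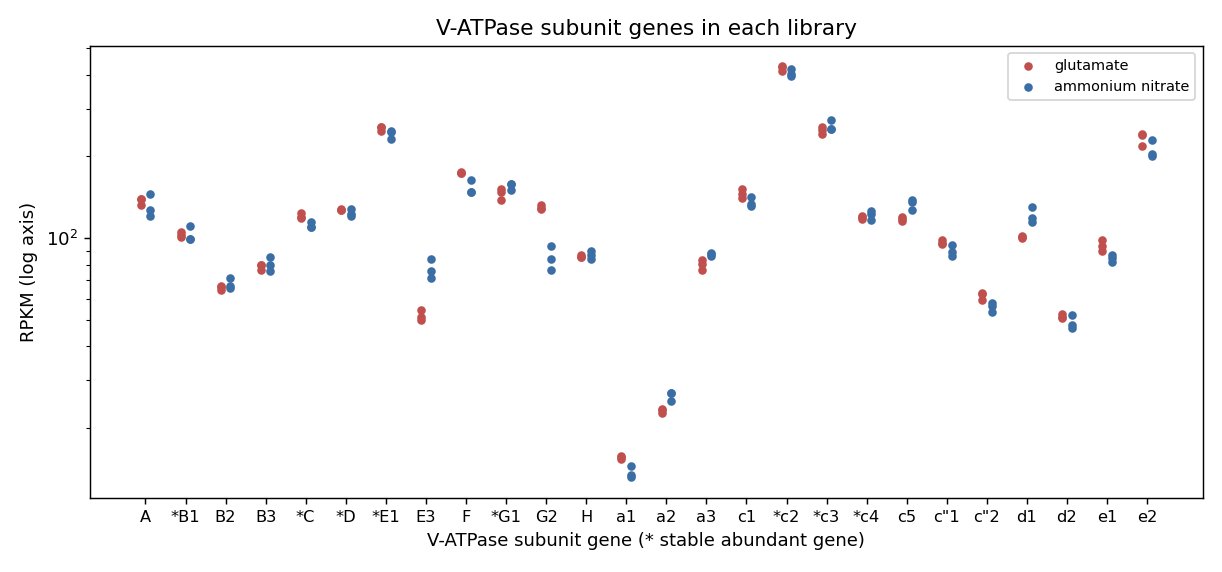
RPKM (log axis) of the 26 V-ATPase subunit genes of at least 1 RPKM in each library, glutamate in red and ammonium nitrate in blue, with an asterisk at the 8 stable abundant genes. The groups overlap at 6 of the 8 marked genes, glutamate lies above ammonium nitrate at C (DET3) and narrowly at E1 (TUF), and the gaps are wide at G2 and E3.

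Mitochondrial energy supply gave 14 of the 107 genes, with members from all 4 electron-moving complexes of the respiratory chain, the ATP synthase and the carriers that serve it. Complex I, which takes electrons from NADH, gave AT5G11770 (20 kDa subunit), FRO1, AT3G03100, AT3G03070 and AT1G67350, while mtACP2 encodes an acyl carrier protein of mitochondrial fatty acid synthesis. AT5G11770 had 177, 178 and 176 RPKM on glutamate and 185, 175 and 180 RPKM on ammonium nitrate, a CV of 2.10%. FRO1 (AT5G67590), here the FROSTBITE1 gene and not a ferric reductase, had 207, 194 and 188 RPKM on glutamate and 198, 181 and 191 RPKM on ammonium nitrate. Both overlapped between groups. Complex II gave SDH4, complex III the QCR9-like AT3G52730 and complex IV the cytochrome c oxidase subunit AT3G62400. AT3G52730 had 235, 242 and 246 RPKM on glutamate, against 231, 213 and 230 RPKM on ammonium nitrate. Here the groups lay just apart, and its CV of 4.95% was close to the limit.

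The ATP synthase gave ATP3 (the gamma subunit, the rotating shaft of the enzyme), AT5G47030 and AT4G29480. ATP3 had 153, 147 and 142 RPKM on glutamate and 155, 149 and 144 RPKM on ammonium nitrate, so that the groups overlapped almost fully. AAC1 and the mitochondrial phosphate carrier PHT3;1 complete the group, since they bring in the ADP and the phosphate from which ATP is made. PHT3;1 had 169, 161 and 159 RPKM on glutamate and 169, 167 and 161 RPKM on ammonium nitrate, which overlapped. The carriers' own paralogs were far less abundant and less level. AAC2 averaged 29.5 ± 2.76 RPKM on glutamate and 20.3 ± 0.492 RPKM on ammonium nitrate, and AAC3 22.5 ± 0.980 RPKM on glutamate and 11.3 ± 0.818 RPKM on ammonium nitrate (SD, n = 3 each). PHT3;2 averaged 16.8 ± 0.949 RPKM on glutamate and 2.21 ± 0.0949 RPKM on ammonium nitrate, a log2 ratio of 2.93. PHT3;3 averaged 4.03 ± 0.353 RPKM on glutamate and 3.26 ± 0.202 RPKM on ammonium nitrate, a log2 ratio of 0.30. Each of these paralogs was higher in every glutamate library than in any ammonium nitrate library. They were picked after their values had been seen, so no test is given.

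A list of mitochondrial respiration genes made from product names held 28 abundant genes without multiply mapped reads. Of these, 8 were stable (28.6%, against 8.59% of all 1245 such abundant genes). With equal library totals 2 genes of the list met the limits. Among all 78 tested genes of that list, 35 were called higher and 10 lower on glutamate, with a median log2 fold change of 0.10, where all 20032 tested genes had 35.0% higher and 36.8% lower with a median of -0.02. The abundant gene of this list with the highest fold change, AT4G28060, encodes a cytochrome c oxidase subunit of the 6b type and had 161, 167 and 162 RPKM on glutamate, against 128, 115 and 118 RPKM on ammonium nitrate. It rose by 0.44 on the log2 scale of RPKM + 1 (SE 0.05, adjusted p = 0.000131, limma). The lowest, AT4G37830, missed the CV limit at 5.54%, with 360, 364 and 331 RPKM on glutamate and 393, 353 and 357 RPKM on ammonium nitrate (log2 -0.06, SE 0.06, adjusted p = 0.409, limma, and 0.0492 with equal library totals).

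Ubiquitin and its relatives gave 11 of the 107 genes. Ubiquitin-conjugating (E2) enzymes carry activated ubiquitin to its targets, and 5 of them were stable: UBC1, UBC2, UBC9, UBC10 and UBC28. UBC10 had 836, 882 and 872 RPKM on glutamate and 843, 803 and 815 RPKM on ammonium nitrate. UBC9 had 188, 192 and 185 RPKM on glutamate, against 184, 175 and 181 RPKM on ammonium nitrate, and UBC28 had 365, 392 and 397 RPKM on glutamate, against 413, 419 and 401 RPKM on ammonium nitrate. UBC10 overlapped between groups, UBC9 lay just apart with glutamate higher and UBC28 just apart with glutamate lower. UBC8, a close relative of UBC9 and UBC10, was outside the set, with 416, 458 and 444 RPKM on glutamate, against 372, 401 and 372 RPKM on ammonium nitrate. UEV1D-4, an E2-like partner protein without a catalytic site, had 121, 118 and 122 RPKM on glutamate, against 111, 116 and 110 RPKM on ammonium nitrate, with no overlap.

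SKP1 (AT1G75950), the adaptor that holds F-box proteins in SCF ubiquitin ligases, had 350, 355 and 333 RPKM on glutamate and 372, 343 and 352 RPKM on ammonium nitrate. The proteasome ATPase gene RPT5A had 110, 103 and 104 RPKM on glutamate, against 112, 111 and 111 RPKM on ammonium nitrate. SKP1 overlapped between groups, and in RPT5A all 3 glutamate values were lower. In the wider list of ubiquitin and conjugation genes, 40 of 87 tested genes were called higher and 19 lower on glutamate, and the median of their log2 fold changes was 0.11. In all, 67.8% of that list was called, against 71.8% of all genes tested, of which 35.0% were higher and 36.8% lower. The polyubiquitin gene UBQ3 was the abundant gene of that list that fell most, with 615, 631 and 652 RPKM on glutamate, against 830, 868 and 833 RPKM on ammonium nitrate (log2 -0.42, SE 0.06, adjusted p = 0.000249, limma). APG8A, which encodes a ubiquitin-like protein of autophagy, rose most, with 159, 176 and 175 RPKM on glutamate, against 102, 96.2 and 82.9 RPKM on ammonium nitrate (log2 0.85, SE 0.08, adjusted p = 3.07e-05, limma).

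Redox enzymes gave 6 genes, and the mean was higher on glutamate in all 6 on the deposited scale. With equal library totals the mean was higher on glutamate in all 107 genes, and 0 of these 6 met the limits. APX1, the cytosolic ascorbate peroxidase that removes hydrogen peroxide, had 466, 424 and 437 RPKM on glutamate and 427, 408 and 416 RPKM on ammonium nitrate. The groups met only where its lowest glutamate value fell just below the highest ammonium nitrate value. Its plastid and peroxisomal relatives were not stable: the thylakoid enzyme TAPX averaged 18.0 ± 2.41 RPKM on glutamate and 55.0 ± 1.61 RPKM on ammonium nitrate, and the stromal enzyme SAPX 43.9 ± 3.79 RPKM on glutamate and 67.6 ± 3.33 RPKM on ammonium nitrate (SD, n = 3 each). The peroxisomal APX3 averaged 81.1 ± 1.17 RPKM on glutamate and 99.6 ± 5.29 RPKM on ammonium nitrate. In these 3 relatives the groups did not overlap. HOT5, which breaks down S-nitrosoglutathione, had 150, 144 and 150 RPKM on glutamate, against 141, 135 and 136 RPKM on ammonium nitrate. GSH1, which joins glutamate to cysteine in the first step of glutathione synthesis, had 153, 157 and 149 RPKM on glutamate and 156, 144 and 150 RPKM on ammonium nitrate. HOT5 lay apart between groups and GSH1 overlapped. The peroxiredoxin TPX1 averaged 281 RPKM over the 6 libraries, the thioredoxin reductase NTRA 148 RPKM and the manganese superoxide dismutase MSD1 153 RPKM.

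Primary metabolism gave 7 genes. Of 4 S-adenosylmethionine synthetase genes, which make the cell's main methyl donor, SAM-2 and MTO3 were stable. SAM-2 had 308, 303 and 295 RPKM on glutamate, against 327, 307 and 320 RPKM on ammonium nitrate. MTO3 had 244, 229 and 240 RPKM on glutamate, against 255, 263 and 252 RPKM on ammonium nitrate, the lowest log2 ratio of the 107 at -0.11. SAM-2 overlapped and MTO3 did not, and in both the mean was lower on glutamate, while the other 2 genes of the family were higher. SAM1 averaged 676 ± 20.4 RPKM on glutamate and 548 ± 18.6 RPKM on ammonium nitrate, and MAT3 207 ± 9.48 RPKM on glutamate and 125 ± 5.64 RPKM on ammonium nitrate (SD, n = 3 each). The remaining genes were ACO1 (aconitase), PDE345 (an aldolase), AXS2 (synthesis of the cell wall sugar donor UDP-apiose) and 2 kinases that share the symbol ADK1. The adenylate kinase AT5G63400, which balances ATP, ADP and AMP, had 186, 177 and 181 RPKM on glutamate and 180, 167 and 177 RPKM on ammonium nitrate. The adenosine kinase AT3G09820, which salvages adenosine, had 135, 123 and 125 RPKM on glutamate and 126, 118 and 125 RPKM on ammonium nitrate. Both overlapped between groups.

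Cytoskeleton and membrane traffic gave 6 genes, all with a higher mean on glutamate on the deposited scale. That held for all 107 genes with equal library totals, where 1 of these 6 met the limits. ADF2 and ADF3 encode actin depolymerizing factors, which sever actin filaments. ADF3 had 317, 315 and 310 RPKM on glutamate, against 303, 284 and 284 RPKM on ammonium nitrate, while ADF2 had 151, 152 and 148 RPKM on glutamate and 147, 149 and 137 RPKM on ammonium nitrate. ADF3 lay apart between groups and ADF2 overlapped. Their relatives ADF1 and ADF4 were also above the level limit but missed the CV limit, at 5.14% and 9.32%. The small GTPase ARFA1D, which recruits coats to vesicles, had 161, 157 and 158 RPKM on glutamate, against 146, 147 and 150 RPKM on ammonium nitrate. Its relative ARFA1F was outside the set, with 105 ± 0.902 RPKM on glutamate and 80.5 ± 3.05 RPKM on ammonium nitrate (SD, n = 3 each). ARFA1E, the most abundant of the family, was nearer the CV limit at 6.81%. It had 789 ± 27.2 RPKM on glutamate and 702 ± 7.43 RPKM on ammonium nitrate (SD, n = 3 each). Vesicle fusion was represented by the SNARE genes VTI1B and SYP51. VTI1B had 123, 127 and 128 RPKM on glutamate and 124, 122 and 123 RPKM on ammonium nitrate, and SYP51 had 102, 108 and 105 RPKM on glutamate and 106, 103 and 97.2 RPKM on ammonium nitrate. Both overlapped. Elsewhere in the list of vesicle traffic genes, VAMP711 fell by 0.20 on the log2 scale of RPKM + 1 (SE 0.06, adjusted p = 0.0176, limma), with 238, 261 and 257 RPKM on glutamate, against 305, 286 and 276 RPKM on ammonium nitrate. That call was lost without glutamate replicate 1, without ammonium nitrate replicate 1 and with equal library totals.

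Nuclear, RNA and translation functions gave 12 genes. The pair NTF2A and NTF2B, which return the GTPase Ran to the nucleus, were both stable. NTF2A had 171, 174 and 176 RPKM on glutamate and 179, 171 and 183 RPKM on ammonium nitrate, and NTF2B had 119, 114 and 112 RPKM on glutamate, against 127, 121 and 121 RPKM on ammonium nitrate. NTF2A overlapped and NTF2B did not. SIRANBP, a Ran-binding protein gene, averaged 177 RPKM. MAGO, a core protein of the exon junction complex, had 158, 159 and 157 RPKM on glutamate and 166, 156 and 163 RPKM on ammonium nitrate. The histone H2B gene HTB4 had 236, 225 and 224 RPKM on glutamate and 245, 223 and 233 RPKM on ammonium nitrate, and AT3G53730, a histone gene, averaged 107 RPKM. The chaperone gene J3, a DNAJ partner of HSP70, had 207, 193 and 200 RPKM on glutamate and 191, 197 and 190 RPKM on ammonium nitrate. MAGO, HTB4 and J3 overlapped between groups. The elongation factor gene AT1G57720 (EF1B gamma chain) had 212, 212 and 218 RPKM on glutamate, against 221, 227 and 224 RPKM on ammonium nitrate. It was the only stable gene among 17 abundant translation factor genes without multiply mapped reads. With equal library totals 5 translation factor genes met the limits.

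Signalling and transcription gave 8 genes. SNRK2.2, a kinase of abscisic acid signalling, had 151, 157 and 159 RPKM on glutamate, against 160, 169 and 159 RPKM on ammonium nitrate, which overlapped at their edges. The calcium-sensor-regulated kinase SIP3 averaged 208 RPKM, SAP5 188 RPKM and AT5G61590, known as DEWAX and a repressor of wax synthesis, 189 RPKM. The AT5G61590 means on glutamate and ammonium nitrate differed by -0.0936%. The EF-hand calcium-binding gene AT1G12310 was the least abundant of the 107, with 104, 101 and 101 RPKM on glutamate and 107, 98.3 and 101 RPKM on ammonium nitrate.

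A further 35 genes fell under none of these headings. They ranged from TCTP to AT3G24160 (PMP) in level and included SAG20, a gene named for senescence, with 464, 479 and 442 RPKM on glutamate and 460, 449 and 433 RPKM on ammonium nitrate. CXIP4, which binds a vacuolar calcium exchanger, had 308, 323 and 306 RPKM on glutamate and 323, 296 and 319 RPKM on ammonium nitrate, and its means differed by 0.00718%. Both overlapped. The papain family protease gene AT4G16190 had 565, 597 and 622 RPKM on glutamate and 557, 614 and 574 RPKM on ammonium nitrate. The cystatin CYSA, an inhibitor of such proteases, averaged 107 RPKM. At the low end of the log2 ratios were the zinc finger gene AT5G16470, with 269, 282 and 270 RPKM on glutamate, against 298, 282 and 301 RPKM on ammonium nitrate, and the oligosaccharyltransferase subunit gene AT1G61790, with 130, 127 and 126 RPKM on glutamate, against 143, 133 and 137 RPKM on ammonium nitrate. At the high end was AT3G27090, a DCD domain gene, with 144, 142 and 144 RPKM on glutamate, against 130, 138 and 132 RPKM on ammonium nitrate. These 3 lay apart between groups.

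Some of the lists made from product names gave no stable gene on the deposited scale. None of 163 abundant cytosolic-type ribosomal protein genes without multiply mapped reads was in the set, and the lowest CV among them was 6.54%. That count depended on the scaling, since 5 genes of that list met the limits with equal library totals and 40 with libraries set level on genes of at least 100 RPKM. Photosynthesis gave 0 of 43, also on both of those scales, RNA binding and splicing 0 of 23 and the 14-3-3 and PP2A list 0 of 6. Vacuolar pumps as annotated by product name gave 5 of 9, mitochondrial respiration 8 of 28, vesicle traffic 3 of 10, histones 2 of 8, and ubiquitin and conjugation 4 of 17. Chaperones gave 1 of 20, small GTPases 1 of 13, cytoskeleton 2 of 12, glycolysis and the TCA cycle 2 of 24 and the proteasome 1 of 3. Over all 1245 abundant genes without multiply mapped reads the share was 8.59%. Several lists are small, and no count was tested against that share. With equal library totals vacuolar pumps gave 2, mitochondrial respiration 2, vesicle traffic 2, histones 3, ubiquitin and conjugation 2, and 14-3-3 and PP2A 2. With libraries set level on genes of at least 100 RPKM, those counts were 0, 0, 1, 1, 3 and 2. In all, 30 of the 107 were in at least 1 of the 15 lists (28.0%), against 31.8% of the other abundant genes. In the fit across all genes, 252 of 302 tested ribosomal protein genes were called lower on glutamate and 10 higher, with a median log2 fold change of -0.38. Of 88 tested photosynthesis genes, 63 were called lower and 12 higher, with a median of -0.78. The proteasome list ran the other way, with 27 of 52 tested genes called higher and 5 lower and a median of 0.19, and so did vesicle traffic, with 56 of 127 higher and 18 lower and a median of 0.14. Of all genes tested, 35.0% were called higher and 36.8% lower. Calls in either direction took 86.8% of the ribosomal, 85.2% of the photosynthesis, 61.5% of the proteasome and 58.3% of the vesicle traffic list, against 71.8% of all genes tested. With equal library totals the medians of these 4 lists were -0.27, -0.66, 0.30 and 0.24, so that none changed sign.

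Promoter sequence was examined as a feature that took no part in the choice. The window ran from 250 bases before to 50 bases after each annotated gene start in the RefSeq annotation of the TAIR10.1 assembly, and motifs were counted on both strands. A site II element, searched as TGGGCC or TGGGCT, stood in 35 of the 107 windows (32.7%), against 35.5% of the other abundant genes and 22.0% of all 26706 windows. Among genes of at least 1 RPKM it stood in 25.3% of 19300 windows. It was in 9 of the 14 mitochondrial genes and in 5 of the 8 V-ATPase genes, but in 0 of the 8 signalling genes and 0 of the 6 cytoskeleton and traffic genes. Between these stood redox (3 of 6), nuclear and translation (5 of 12), ubiquitin (3 of 11) and metabolic genes (1 of 7). Genes of these roles outside the 107 were not counted. The telo box, AAACCCTA, stood in 6 windows (5.61%), against 11.4% of the other abundant genes and 6.17% of all windows. Both motifs together stood in 2 of the 107 (1.87%), TCTP and PHT3;1, against 8.42% of the other abundant genes. The TATA box, TATAAA, was in 47.7% of the 107 and in 55.1% of the other abundant genes. The G-box, CACGTG, was in 9.35% and 9.04% of these sets, and the W-box, TTGACC or TTGACT, in 29.9% and 30.9%. A motif match is a description of letters and does not show that a factor binds.

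Printed here are the 150 bases before the annotated start of 8 of the genes, 5' to 3' along the gene, with site II and telo box letters in capitals. TCTP and PHT3;1 are the 2 genes with both motifs in the window, although the telo box of PHT3;1 begins 179 bases before the start and so lies outside the stretch. VMA10, TUF and ATP3 stand for the proton pump and the ATP synthase, UBC9 and UBC10 are stable genes in use as qPCR references, and VAP27-1 had the lowest CV.
TCTP, chr3:5670843-5670992, minus strand: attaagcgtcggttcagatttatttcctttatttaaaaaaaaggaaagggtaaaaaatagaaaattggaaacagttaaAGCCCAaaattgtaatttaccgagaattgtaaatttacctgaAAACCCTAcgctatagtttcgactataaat
PHT3;1, chr5:4533120-4533269, minus strand: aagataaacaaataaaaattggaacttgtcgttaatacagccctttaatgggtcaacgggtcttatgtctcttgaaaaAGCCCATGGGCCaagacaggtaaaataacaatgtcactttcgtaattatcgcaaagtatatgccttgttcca
VMA10, chr3:151573-151722, minus strand: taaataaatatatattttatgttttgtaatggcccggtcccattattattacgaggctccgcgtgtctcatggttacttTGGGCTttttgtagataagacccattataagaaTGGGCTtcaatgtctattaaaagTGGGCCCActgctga
TUF, chr4:6799737-6799886, plus strand: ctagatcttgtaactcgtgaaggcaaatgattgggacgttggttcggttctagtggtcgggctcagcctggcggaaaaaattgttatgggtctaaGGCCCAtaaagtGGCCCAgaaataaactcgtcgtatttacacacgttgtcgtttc
ATP3, chr2:14021186-14021335, minus strand: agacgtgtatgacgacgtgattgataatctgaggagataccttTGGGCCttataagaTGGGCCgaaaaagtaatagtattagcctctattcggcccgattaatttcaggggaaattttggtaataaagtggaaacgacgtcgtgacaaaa
UBC9, chr4:13917501-13917650, minus strand: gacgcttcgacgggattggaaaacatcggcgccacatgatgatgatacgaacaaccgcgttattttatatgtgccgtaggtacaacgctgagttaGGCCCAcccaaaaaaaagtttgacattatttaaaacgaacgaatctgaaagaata
UBC10, chr5:21634315-21634464, minus strand: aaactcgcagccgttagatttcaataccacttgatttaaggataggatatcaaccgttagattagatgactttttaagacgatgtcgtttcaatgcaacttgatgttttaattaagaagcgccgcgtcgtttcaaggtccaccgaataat
VAP27-1, chr3:22399960-22400109, plus strand: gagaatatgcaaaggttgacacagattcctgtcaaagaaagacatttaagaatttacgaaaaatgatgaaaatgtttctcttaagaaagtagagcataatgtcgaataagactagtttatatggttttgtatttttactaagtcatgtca
VMA10 carries 4 site II matches in this stretch, the last pair overlapping on opposite strands, and TUF and ATP3 carry 2 each. PHT3;1 has 2 in a row, UBC9 and TCTP 1 each, and UBC10 and VAP27-1 none.

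Genes in common use as qPCR references are a group in which stability between treatments is of practical interest. Of 25 such genes listed for Arabidopsis, 24 passed the filter of 1 RPKM, and AT1G58050 had 0 reads in every library. Only UBC9 and UBC10 belonged to the 107, and their p-values are not read, since the same values chose them. Of the other 22, 8 were called higher on glutamate, 8 lower and 6 were not called, so that 72.7% were called, against 71.8% of all genes tested. With equal library totals UBC9 and UBC10 had CVs of 6.99% and 7.64%, above the limit of 5%. On that scale the CV was 2.93% in AT2G28390, 3.12% in PP2AA3, 3.73% in AT5G60390 and 4.12% in AT2G32170. The actin gene ACT2 had 519, 496 and 537 RPKM on glutamate, against 723, 821 and 718 RPKM on ammonium nitrate, and fell by 0.54 on the log2 scale of RPKM + 1 (SE 0.07, adjusted p = 0.000199, limma). UBQ10, a polyubiquitin gene, had 1041, 1101 and 1037 RPKM on glutamate, against 764, 749 and 767 RPKM on ammonium nitrate, and rose by 0.48 (SE 0.06, adjusted p = 0.000133, limma). Both kept all glutamate values apart from all ammonium nitrate values. The glycolytic pair GAPC1 and GAPC2 was called in opposite directions, GAPC1 with 394, 338 and 347 RPKM on glutamate, against 257, 251 and 248 RPKM on ammonium nitrate, and GAPC2 with 437, 413 and 403 RPKM on glutamate, against 530, 506 and 553 RPKM on ammonium nitrate. The fold changes were 0.51 in GAPC1 (SE 0.07, adjusted p = 0.000193, limma) and -0.34 in GAPC2 (SE 0.06, adjusted p = 0.00104, limma). Other called reference genes lay between -0.38 in the tubulin gene TUB4 and 0.40 in the ubiquitin ligase gene UPL7 on the same scale.

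**Figure D4:**
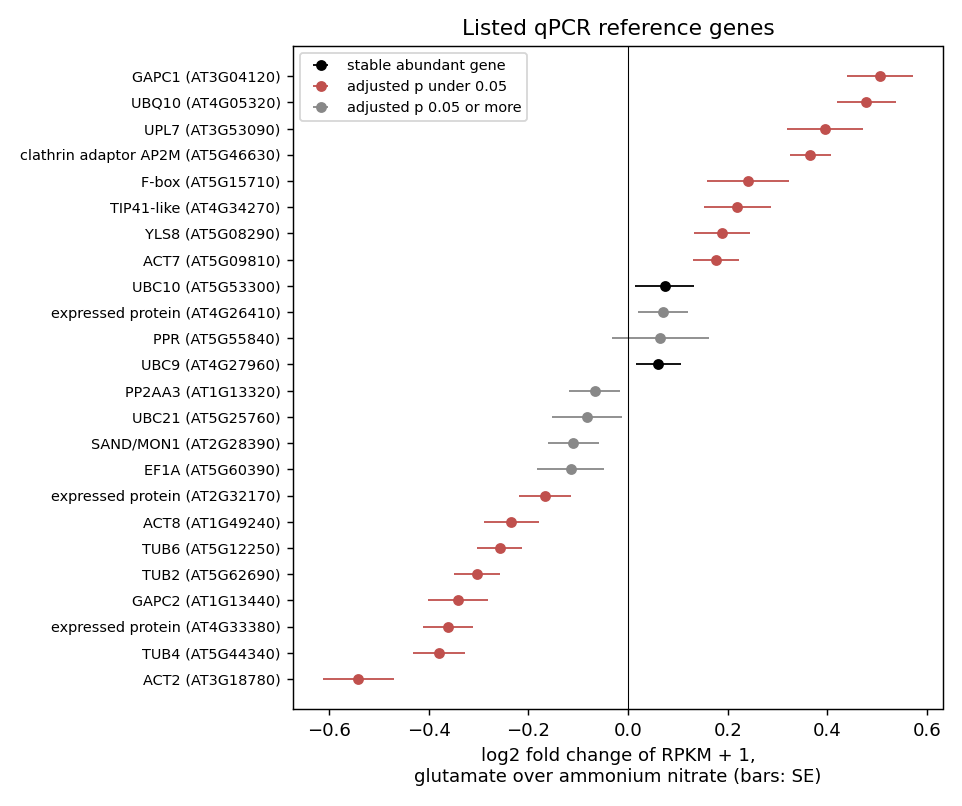
Log2 fold change of RPKM + 1 (x axis, glutamate over ammonium nitrate, bars 1 SE) of the 24 listed qPCR reference genes that passed the filter, with the 2 stable abundant genes in black, called genes in red and uncalled ones in grey. ACT2 lies lowest at -0.54 and GAPC1 highest at 0.51.

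The 6 reference genes that were not called included PP2AA3 (AT1G13320), a phosphatase scaffold subunit, and AT4G26410, which were under the CV limit at 4.11% and 4.28% but far below the level limit. PP2AA3 had 23.7, 22.7 and 22.2 RPKM on glutamate and 24.5, 24.5 and 23.0 RPKM on ammonium nitrate. AT4G26410 had 51.6, 48.9 and 49.2 RPKM on glutamate and 49.9, 46.5 and 46.1 RPKM on ammonium nitrate. Both overlapped between groups, with log2 fold changes of -0.07 (SE 0.05, adjusted p = 0.264, limma) and 0.07 (SE 0.05, adjusted p = 0.234, limma), and a p above the threshold does not show that the levels were equal. PP2AA3 changed sign to 0.0404 with equal library totals. The elongation factor gene AT5G60390, used as EF1A, had 802, 718 and 761 RPKM on glutamate and 815, 861 and 793 RPKM on ammonium nitrate (log2 -0.11, SE 0.07, adjusted p = 0.156, limma).

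Membership depended on how each library was scaled. The deposited values carry a TMM factor, which sets libraries level on the bulk of genes, and dividing by library total alone gives a scale shifted by 0.11 log2 toward glutamate. With equal totals all 107 genes had a higher mean on glutamate, with log2 ratios up to 0.23 and a median of 0.14, and their median CV was 6.17%. On that scale 87 genes met the limits, of which 33 were among the 107 (30.8% of the 107 and 37.9% of the 87). Genes that met them only then included HSC70-1, TRX3 and HOG1, which the deposited scale puts lower on glutamate. Setting libraries level on the median of genes of at least 100 RPKM, which were lower on glutamate by a median of -0.25 log2, gave 110 genes and shared 1 with the 107, the oligosaccharyltransferase subunit gene AT1G61790. Levelling on genes of at least 1 RPKM gave 108 genes with 95 shared, and levelling on the listed qPCR references gave 90 with 69 shared.

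**Figure D5:**
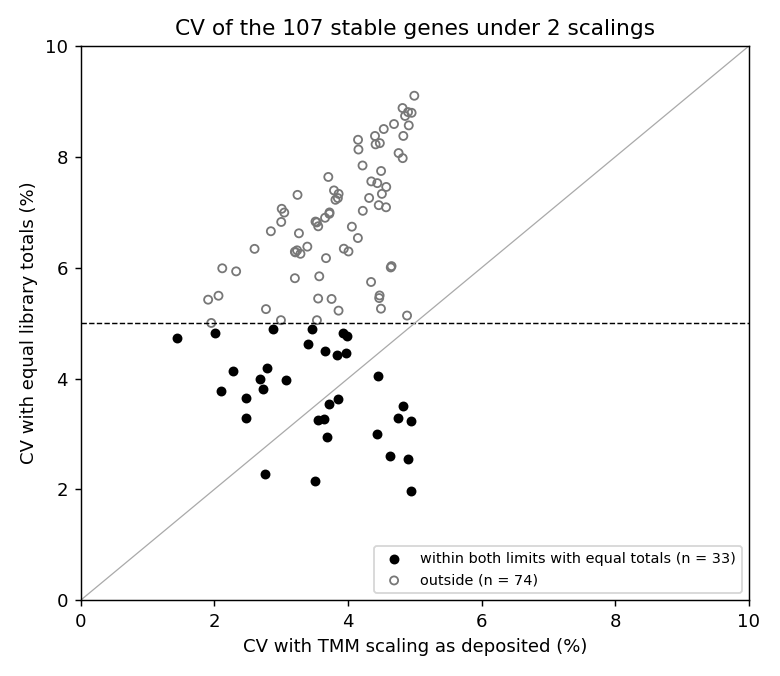
CV (%) of each of the 107 genes with equal library totals against its CV with TMM scaling as deposited, with filled circles for the 33 genes within both limits on both scales, open circles for the other 74, a dashed line at 5% and a grey line of equality. Most points lie above the line of equality, and the CV with equal totals reaches 9.10%.

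Taking all of these but the levelling on the most abundant genes, 30 of the 107 stayed within the limits. Among them were VAP27-1, SKP1, UBC28, RPT5A, PHT3;1, ATP3, AT5G11770, VHA-C3, AVA-P4, SAM-2, MTO3, ACO1, NTF2A, NTF2B, MAGO, HTB4, SNRK2.2 and COB. At the other end, 12 met the limits with TMM scaling alone, among them APX1, DET3, UEV1D-4, HOT5, ADF3, AT3G52730, AT2G04520, AT2G38800, AT3G27090, AT5G27860 and AT5G38980. By role, the genes within the limits with equal totals were 3 of 8 V-ATPase genes, 3 of 11 ubiquitin genes, 4 of 14 mitochondrial genes, 0 of 6 redox genes, 3 of 7 metabolic genes, 1 of 6 cytoskeleton and traffic genes, 6 of 12 nuclear and translation genes and 3 of 8 signalling genes.

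Genes were also chosen on 5 libraries at a time, and their values in the left-out library were then read. The 5 libraries always included others of the same group, and the deposited TMM scaling, which sets libraries level on the bulk of genes, was kept. The left-out library was therefore not independent of the choice. No share was counted for the other abundant genes, so the counts below are a description and not a test of stability. Chosen without glutamate replicate 1, 2 or 3, 102 of 106, 103 of 106 and 99 of 103 genes had a value in the left-out library within 10% of the mean of the other 5. Without ammonium nitrate replicate 1, 2 or 3 the counts were 105 of 121, 113 of 140 and 101 of 105. Ammonium nitrate replicate 2 was read lower than the other 5 by a median of -4.20%. Between 90 and 100 of the 107 genes were chosen again in each case, but both choices used the same 5 libraries, so nothing is read from that overlap.

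One nitrogen source alone would have picked a far wider set. With the ammonium nitrate libraries alone, 670 abundant genes met the limits, among them 92 of the 107 (86.0% of the 107 and 13.7% of the 670), and 120 of the 670 differed at least 2-fold in mean RPKM between nitrogen sources. With the glutamate libraries alone, 743 genes met them, among them 102 of the 107, and 73 of the 743 differed at least 2-fold. A wider set follows largely from the rule itself, since the CV of a single group leaves out the difference between groups. The 107 were chosen on these same libraries, so nothing is read from how many of them recurred.

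Genes next to the limits were little different from their neighbours outside. Close inside the CV limit stood MTO3 at 4.94% and AT3G52730 at 4.95%, and just outside it AT5G03460 at 5.02%, TOPP1 at 5.02% and AT1G36980 at 5.03%. Just inside the level limit stood AT1G12310 at 102 RPKM, VAB1 at 103 RPKM and SYP51 at 103 RPKM, and just outside it AT4G22240 at 98.5 RPKM, ADK (AT2G37250) at 98.5 RPKM and RTNLB3 at 98.6 RPKM. A further 8 genes met both limits but had some multiply mapped reads: the histone genes HTB9, HTB11 and AT1G07820, the ATP synthase genes AT5G08670 and AT5G08690, GSTL3, SAR1B and AT5G47570.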

How the data were processed

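RNA-seq of whole seedlings was analysed from 1 deposited table of 33602 genes and 6 libraries. Its values are RPKM to which the authors applied TMM scaling, per the file name and header, and it lists gene length and a fraction of multiply mapped reads per gene, as deposited by the authors. TAIR10 and SAMtools stand in the submitters' processing notes, and no aligner or read counter is named in the sources used here. RPKM times length gave whole reads plus 0.5 (tolerance 0.05) for 95.9% to 96.4% of genes. These reads gave library totals, the scaling factors printed above and counting errors, which cover counting error only.

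The table was fitted once with limma 3.58.1 under R 4.3.3, using log2(RPKM + 1) and a mean-variance trend, over the 20032 genes averaging 1 RPKM or more. Its two-sided p-values were adjusted over those genes by Benjamini-Hochberg, and a gene was called under 0.05. These fold changes understate the change of low genes. The fit was tested on simulated data. The 107 members were part of this fit, but their own calls support nothing, since the same values chose them.

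The members, the role groups, the V-ATPase list, the reference list and the product lists were chosen with earlier results of these data known. Members named were the 12 most abundant, the 12 of lowest CV, up to 3 per product list, the 5 highest and 5 lowest ratios, qPCR references and those next to each limit, and others were added after their values were seen. One gene that this rule names is not reported here. Names and promoters came from RefSeq on TAIR10.1, which matched 32835 of the identifiers (97.7%) and all 107 members. Alternatives covered the limits, the scaling, the pseudocount (0.1 and 5 RPKM), the filter, the replicate block and leaving out each library. Centring on genes of at least 1 RPKM and on the qPCR references was added after seeing the data.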

Additional observations from a re-analysis of the deposited data

How the results depend on the processing

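The number of stable abundant genes, 107, was 20 with a CV limit of 3%, 326 with 10%, 256 with a level limit of 50 RPKM, 28 with 200 RPKM, 670 on the ammonium nitrate libraries alone and 743 on the glutamate libraries alone. It was 103 to 140 when 1 library was left out and 115 without the condition on multiply mapped reads. With equal library totals, 52 of the 107 genes were called in place of 2, PP2AA3 (AT1G13320) turned to 0.0404, UBC21 (AT5G25760) to 0.0259 and AT4G37830 to 0.0492 on the log2 scale, and calls over all genes split into 8452 higher and 5989 lower, against 7013 and 7377.

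Same-numbered libraries did not deviate together (correlations 0.10, 0.05 and -0.01), so the numbers were not taken as pairs. With a replicate block, 14194 genes were called in place of 14390 and 16 of the reference genes, as without it. Without glutamate replicate 2, 12 reference genes were called in place of 16.

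With equal totals and centring on genes of at least 100 RPKM, log2 ratios of the 49 members named by rule moved beyond 1 SD. Those ratios stayed within it with centring on genes of at least 1 RPKM and in each leave-out. The leave-outs could not have given another result, because the SD came from the same few libraries, so nothing is read from them. Depth was not the limit for members, which had at least 2545 reads per library.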
